A study of Mus musculus with 18 samples.

Results

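Nonsense-mediated decay (NMD) factors were followed through polysome gradients of mouse embryonic stem cells (ESCs) with and without the RNA helicase DDX6. The 8 genes were Upf1, Upf2, Upf3a, Upf3b, Smg1, Smg5, Smg6 and Smg9. They were taken from a fixed list of symbols, each of which mapped to 1 Ensembl identifier among the 51467 genes of the count table. All 8 passed the filter on low counts, which kept 12705 genes.

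NMD is a surveillance pathway that degrades mRNAs on which a ribosome terminates in an unusual context, such as upstream of an exon junction complex. The helicase UPF1 is recruited to the terminating ribosome, contacts the exon junction complex through UPF2 and the UPF3 proteins, and is phosphorylated by the kinase SMG1. Phosphorylated UPF1 then binds SMG5, which helps to recruit decay enzymes, and SMG6, which cuts the mRNA. The pathway also sets the level of many normal transcripts, among them mRNAs of several NMD factors, and it is needed for the differentiation of mouse ESCs.

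The cells were of the V6.5 ESC line. The wild-type (WT) cells carried intact Ddx6, and the Ddx6 KO cells carried an insertion or a large deletion, depending on the clone, at an exon of Ddx6, made with CRISPR-Cas9 before clones were grown from sparsely sorted cells. All were cultured in serum with LIF and 2i (PD0325901 and CHIR99021). All cells of both genotypes were treated with 100 ug/ml cycloheximide for 2 min before lysis, and each lysate was separated on a sucrose gradient into a monosome, a low polysome (2 to 4 ribosomes) and a high polysome (4 or more ribosomes) fraction. There were 3 gradients per genotype, and with 3 fractions each they gave 18 libraries in 6 groups of 3. KO gradient 1 was clone 1 and KO gradients 2 and 3 were clone 2, so that each KO clone is a single line and the clone and the gradient cannot be told apart for clone 1. The WT gradients carry no clone label. No label says that the gradients came from separate cultures, so the p-values measure the spread between these gradients only.

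Library totals were 2543617 to 11474550 counts, and the lowest count of any member in any library was 26, for Smg1. Depth differed by genotype in the monosome, at 2543617, 4338977 and 4894677 counts in WT and 7735822, 7811071 and 7537656 in KO. Levels are given as CPM (counts divided by the TMM-scaled library size), which in these 3′ end libraries count transcript ends and so are not divided by length. A level in a fraction is a share of the RNA of that fraction. Fewer cells with a transcript and less of it per cell cannot be told apart, nor can a change in amount and a change in position in the gradient from a single fraction. Ddx6 itself was at 143, 156 and 160.4 CPM in the WT monosome libraries and 57.5, 26.7 and 17.6 CPM in the KO ones, and clone 1 kept more Ddx6 reads than clone 2 in each fraction. These reads lie at the 3′ end, outside the edited exon, so they count the transcript and do not check the edit. All 8 ESC markers passed the filter, with a summed level of 1804 to 3349 CPM in WT and 1737 to 3190 CPM in KO. Of the trophoblast list (Cdx2, Elf5, Eomes and Krt8), Krt8 was at 0.368 to 3.94 CPM in WT and 19.6 to 72.9 CPM in KO. Cdx2 and Elf5 were below the filter, and Eomes passed it. Of 2 tested genes 1 was called higher in each KO fraction, against 18.6% (monosome), 23.4% (low polysome) and 25.3% (high polysome) of all genes. The epiblast list (Fgf5, Otx2, Dnmt3b, Pou3f1 and T) summed to 103 to 149 CPM in WT and 32.7 to 80.4 CPM in KO, with Fgf5 at 0 in all 18 libraries. The primitive endoderm list, with Gata6, Gata4 and Sox17 below the filter, summed to 1020.2 to 4152 CPM in WT and 1533 to 5980.2 CPM in KO, and the fibroblast list to 4.65 to 10.7 CPM and 5.79 to 11.1 CPM. Of the primitive endoderm list, 2 genes were tested, Sparc and Dab2. In KO, 1 was called higher in the monosome (18.6% of all genes), and both were in the low (23.4%) and high polysome (25.3%). The median log2 changes were 0.92 (monosome), 0.95 (low polysome) and 0.98 (high polysome). Krt8 and the epiblast list moved with genotype in the same libraries as the NMD factors, as did Sparc and Dab2 in the polysome fractions. The part of these genes in the results was not tested.

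In WT cells the NMD factor mRNAs were spread unevenly along the gradient. Upf3a and Smg1 were more abundant in the high polysome, compared with the monosome, whereas Upf1, Upf3b, Smg5, Smg6 and Smg9 were less abundant there. The Smg9 difference was called in only 6 of 19 alternative analyses. In Ddx6 KO cells Upf2, Upf3b and Smg1 fell in the 2 lighter fractions, joined by Upf3a and Smg6 in the low polysome. In the high polysome Upf1, Smg5 and Smg9 rose, and Upf2 and Upf3a fell. Of these, Upf1 and Upf3a were called in all 19 alternative analyses, Smg9 in 17, Smg5 in 15 and Upf2 in 14. The high polysome to monosome ratio of Upf1 was 2.42-fold higher in KO than in WT.

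**Figure D1:**
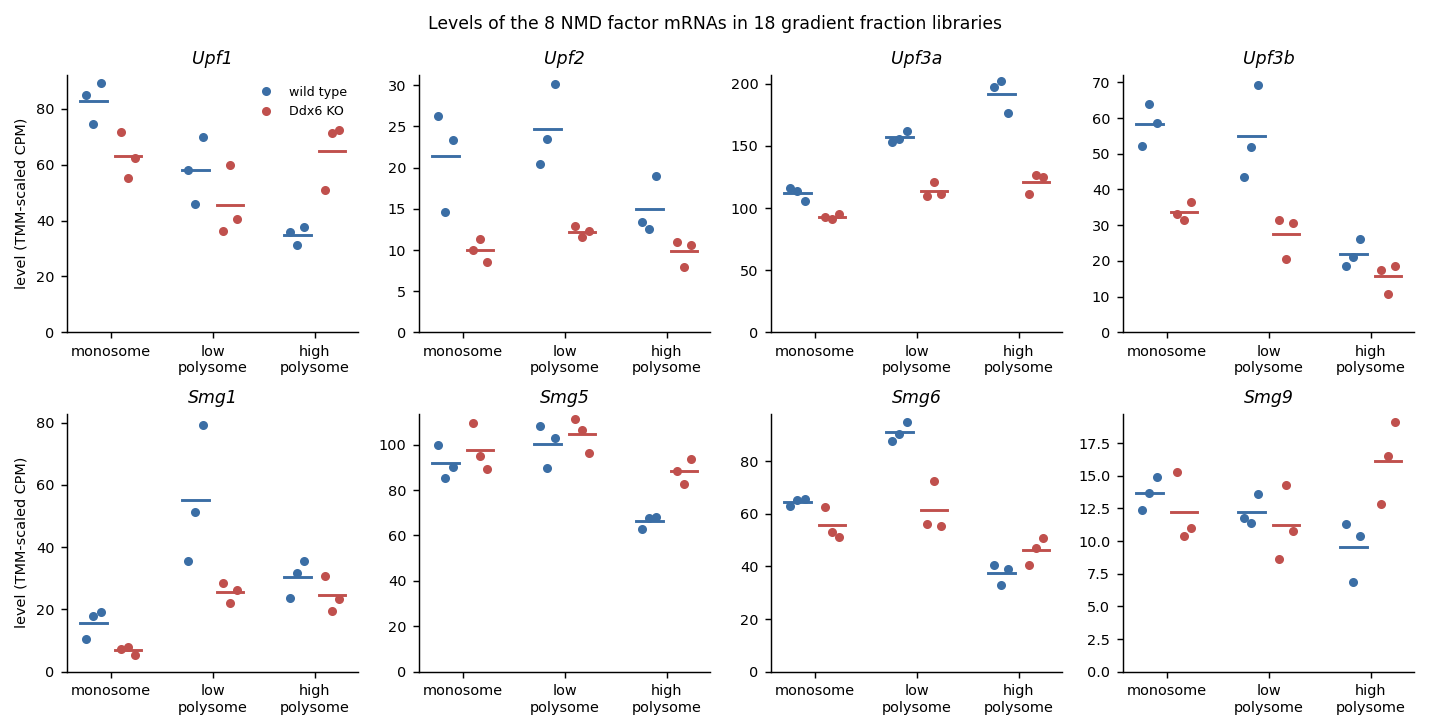
Level of each NMD factor mRNA (vertical axis, TMM-scaled CPM, linear from 0) in the 3 gradient fractions of WT (blue) and Ddx6 KO (red) cells, with 1 point per library in the order of gradients 1 to 3 and a bar at the mean of 3. The WT points of Upf1 step down from monosome to high polysome, with means of 82.9 and 34.9 CPM, while the KO points do not, with means of 63.1 and 64.8 CPM.

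The levels of the 8 mRNAs covered a wide range. In the WT monosome their order by mean level was Upf3a at 112 CPM, Smg5 at 91.9 CPM, Upf1 at 82.9 CPM, Smg6 at 64.6 CPM, Upf3b at 58.2 CPM, Upf2 at 21.4 CPM, Smg1 at 15.8 CPM and Smg9 at 13.7 CPM. Neighbours in this order whose 3 libraries overlapped were Smg5 and Upf1, Smg6 and Upf3b, Upf2 and Smg1, and Smg1 and Smg9. In the WT high polysome the lead of Upf3a was wider, at 192 CPM against 66.2 CPM for Smg5, and Smg1 (30.3 CPM) lay above Upf3b (21.9 CPM).

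Upf1 (ENSMUSG00000058301.8, chr8:70331525-70353278, minus strand of GRCm38) encodes the helicase at the centre of the pathway. Monosome levels of Upf1 were 84.8, 74.6 and 89.3 CPM in WT gradients 1, 2 and 3 and 71.7, 55.1 and 62.5 CPM in KO gradients 1, 2 and 3, the order of gradients used throughout. Upf1 low polysome levels were 58.0, 45.9 and 69.9 CPM in WT and 36.1, 59.9 and 40.4 CPM in KO. Upf1 high polysome levels were 35.9, 31.1 and 37.8 CPM in WT and 50.8, 71.4 and 72.2 CPM in KO. Every KO library was below every WT library in the monosome and above every WT library in the high polysome, and the groups overlapped in the low polysome. The rise in the high polysome was 1.84-fold (log2 change 0.88 ± 0.19 (SE), limma adjusted p = 0.000728) and was called under all 19 alternatives. In the monosome the log2 change was -0.40 ± 0.19 (SE), limma adjusted p = 0.104 (95% interval -0.79 to -0.00) and did not pass the threshold, although it did without KO gradient 1 (-0.49, adjusted p = 0.0454). In the low polysome it was -0.37 ± 0.19 (SE), limma adjusted p = 0.109, and it passed without WT gradient 2 (-0.53, adjusted p = 0.0489) or without KO gradient 2 (-0.58, adjusted p = 0.0189).

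Upf2 (ENSMUSG00000043241.14, chr2:5951469-6056703, plus strand) encodes the adaptor that links UPF1 to the UPF3 proteins. Monosome levels of Upf2 were 26.3, 14.6 and 23.4 CPM in WT and 9.95, 11.4 and 8.59 CPM in KO. Upf2 low polysome levels were 20.5, 23.5 and 30.2 CPM in WT and 12.9, 11.6 and 12.3 CPM in KO. Upf2 high polysome levels were 13.3, 12.5 and 18.9 CPM in WT and 11.02, 7.94 and 10.6 CPM in KO. Every KO library was below every WT library in each of the 3 fractions, and each fall was called. The fold of KO over WT was 0.488 in the monosome (log2 change -1.03 ± 0.24 (SE), limma adjusted p = 0.0022), 0.503 in the low polysome (log2 change -0.99 ± 0.21 (SE), limma adjusted p = 0.000591) and 0.662 in the high polysome (log2 change -0.59 ± 0.22 (SE), limma adjusted p = 0.0326). The high polysome call was lost without WT gradient 3 (-0.40, adjusted p = 0.155), KO gradient 2 (-0.45, adjusted p = 0.16) or KO gradient 3 (-0.68, adjusted p = 0.0575).

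The UPF3 proteins bind the exon junction complex, and UPF3B is the stronger activator of NMD of the pair. Upf3a (ENSMUSG00000038398.8, chr8:13785615-13799193, plus strand) was the most abundant of the 8 mRNAs in every fraction of WT cells. Monosome levels of Upf3a were 116, 114 and 105 CPM in WT and 92.6, 91.0 and 95.04 CPM in KO. Upf3a low polysome levels were 153, 155 and 162 CPM in WT and 109, 121 and 111 CPM in KO. Upf3a high polysome levels were 198, 202 and 176 CPM in WT and 112, 127 and 125 CPM in KO. The groups did not overlap in any fraction, and KO was the lower group each time. The change grew from the monosome (log2 change -0.26 ± 0.11 (SE), limma adjusted p = 0.0596, not called) to the low polysome (log2 change -0.47 ± 0.10 (SE), limma adjusted p = 0.000903) and the high polysome (log2 change -0.66 ± 0.10 (SE), limma adjusted p = 2.43e-05), where the fold of KO over WT was 0.631. These are 3 separate tests, and the difference between the high polysome and the monosome did not itself pass (log2 difference -0.40 ± 0.15 (SE), limma adjusted p = 0.0638). It did pass in 7 of 19 alternatives, among them scaling by DESeq2 size factors (-0.46, adjusted p = 0.0402) or library size alone (-0.53, adjusted p = 0.0163) and the DESeq2 test (-0.46, adjusted p = 0.0159), with values of -0.53 to -0.36. The monosome fall was called in 6 of 19, with values of -0.33 to -0.25.

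Upf3b (ENSMUSG00000036572.16, chrX:37091678-37110322, minus strand) lay at the other end of the gradient from its paralog. Monosome levels of Upf3b were 52.2, 63.9 and 58.6 CPM in WT and 33.2, 31.5 and 36.4 CPM in KO. Upf3b low polysome levels were 43.5, 51.8 and 69.3 CPM in WT and 31.5, 20.5 and 30.5 CPM in KO. Upf3b high polysome levels were 18.5, 21.01 and 26.2 CPM in WT and 17.6, 10.9 and 18.5 CPM in KO. KO libraries were below all WT libraries in the 2 lighter fractions, and the groups overlapped at the WT value of 18.5 CPM in the high polysome. The fold of KO over WT was 0.574 in the monosome (log2 change -0.80 ± 0.21 (SE), limma adjusted p = 0.00442) and 0.506 in the low polysome (log2 change -0.98 ± 0.20 (SE), limma adjusted p = 0.000417). The high polysome log2 change was -0.51 ± 0.22 (SE), limma adjusted p = 0.0663, which passed without WT gradient 1 (-0.68, adjusted p = 0.0296) and with the gradient number as a replicate block (-0.51, adjusted p = 0.0381). That block joins WT and KO gradients of the same number, although the numbers do not pair the genotypes.

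Smg1 (ENSMUSG00000030655.15, chr7:118131308-118243670, minus strand) encodes the kinase that phosphorylates UPF1, and its coding sequence of 10974 nt was the longest of the 8. Monosome levels of Smg1 were 10.4, 17.9 and 19.1 CPM in WT and 7.40, 7.86 and 5.26 CPM in KO. Smg1 low polysome levels were 35.5, 51.3 and 79.1 CPM in WT and 28.4, 22.1 and 26.4 CPM in KO. Smg1 high polysome levels were 23.6, 31.6 and 35.7 CPM in WT and 30.6, 19.6 and 23.4 CPM in KO. The low polysome held the highest mean in both genotypes, and WT gradient 3 there was the highest single library. KO libraries were below all WT libraries in the monosome and the low polysome, and the groups overlapped in the high polysome. The fold of KO over WT was 0.421 in the monosome (log2 change -1.25 ± 0.37 (SE), limma adjusted p = 0.0116) and 0.488 in the low polysome (log2 change -1.03 ± 0.24 (SE), limma adjusted p = 0.00134), against log2 change -0.32 ± 0.24 (SE), limma adjusted p = 0.292 in the high polysome. The monosome call was lost without WT gradient 2 (-1.16, adjusted p = 0.0658), without KO gradient 3 (-1.08, adjusted p = 0.0656) and with all libraries thinned to the depth of the shallowest (-0.99, adjusted p = 0.0782), and the high polysome fall was called without WT gradient 1 (-0.54, adjusted p = 0.0444).

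Smg9 (ENSMUSG00000002210.11, chr7:24399619-24422778, plus strand) encodes a partner of the SMG1 kinase and was among the least abundant members, with 31 to 187 counts per library. Monosome levels of Smg9 were 12.3, 13.7 and 14.9 CPM in WT and 15.3, 10.4 and 11.03 CPM in KO. Smg9 low polysome levels were 11.8, 11.4 and 13.6 CPM in WT and 8.66, 14.3 and 10.8 CPM in KO. Smg9 high polysome levels were 11.3, 6.90 and 10.4 CPM in WT and 12.8, 16.5 and 19.1 CPM in KO. In the high polysome every KO library was above every WT library, and the groups overlapped in the other fractions. The high polysome rise was 1.73-fold (log2 change 0.79 ± 0.21 (SE), limma adjusted p = 0.00507), and it was not called without WT gradient 2 (0.57, adjusted p = 0.0685) or KO gradient 3 (0.63, adjusted p = 0.0564). The log2 change was -0.20 ± 0.25 (SE), limma adjusted p = 0.546 in the monosome and -0.16 ± 0.22 (SE), limma adjusted p = 0.597 in the low polysome.

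Smg5 (ENSMUSG00000001415.10, chr3:88336260-88362338, plus strand) encodes a factor that binds phosphorylated UPF1 and recruits decay enzymes. Monosome levels of Smg5 were 100.0, 85.5 and 90.3 CPM in WT and 109, 94.9 and 89.3 CPM in KO. Smg5 low polysome levels were 108, 89.6 and 103 CPM in WT and 111, 107 and 96.3 CPM in KO. Smg5 high polysome levels were 62.8, 67.7 and 68.1 CPM in WT and 88.5, 82.5 and 93.8 CPM in KO. The groups overlapped in the monosome and the low polysome and were apart in the high polysome, with KO higher. The log2 change was 0.09 ± 0.12 (SE), limma adjusted p = 0.572 (95% interval -0.16 to 0.35) in the monosome and 0.06 ± 0.12 (SE), limma adjusted p = 0.703 (95% interval -0.18 to 0.30) in the low polysome. The high polysome rise was 1.33-fold (log2 change 0.41 ± 0.12 (SE), limma adjusted p = 0.00695), and it was not called without WT gradient 1 (0.31, adjusted p = 0.0687) or KO gradient 3 (0.35, adjusted p = 0.056).

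Smg6 (ENSMUSG00000038290.15, chr11:74925823-75164448, plus strand) encodes the endonuclease of the pathway. Monosome levels of Smg6 were 62.9, 65.3 and 65.7 CPM in WT and 62.5, 52.9 and 51.2 CPM in KO. Smg6 low polysome levels were 87.7, 90.3 and 94.9 CPM in WT and 56.2, 72.6 and 55.3 CPM in KO. Smg6 high polysome levels were 40.7, 33.1 and 38.9 CPM in WT and 40.6, 47.1 and 50.9 CPM in KO. KO libraries were below all WT libraries in the monosome and the low polysome, and the groups overlapped in the high polysome, where the KO mean was the higher. The low polysome fall was to a fold of 0.668 (log2 change -0.58 ± 0.13 (SE), limma adjusted p = 0.000958). The log2 change was -0.23 ± 0.14 (SE), limma adjusted p = 0.209 in the monosome and 0.30 ± 0.14 (SE), limma adjusted p = 0.0739 in the high polysome, and the latter passed without KO gradient 1 (0.39, adjusted p = 0.0298).

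In the lighter fractions the called changes of NMD factor mRNAs ran in 1 direction. In the monosome 3 of 8 members were lower and 0 higher, where 20.1% of all genes tested were lower and 18.6% higher. In the low polysome 5 of 8 were lower and 0 higher, against 24.3% and 23.4% of all genes. In the high polysome 2 of 8 were lower and 3 higher, against 21.1% and 25.3%. Genes with coding sequences above 3000 nt, among them Upf1, Upf2, Smg1, Smg5 and Smg6, were less evenly split. Among monosome libraries 21.7% of these long genes were lower and 9.01% higher. Their shares were 30.0% and 14.4% among low polysome libraries, and 10.8% and 42.7% among high polysome libraries. The median log2 changes of the long genes were -0.20, -0.18 and 0.33, in that order of fractions. The median log2 change of the members was -0.33 (monosome), -0.52 (low polysome) and -0.01 (high polysome), beside -0.03, -0.03 and -0.01 over all genes. KO and WT did not overlap, with KO lower, for 6 members among monosome libraries (27.0% of all genes), for 5 among low polysome libraries (26.1%) and for 2 among high polysome libraries (26.1%), and with KO higher for 3 in the high polysome (29.0%). The share of counts from mitochondrial genes also differed between genotypes in the lighter fractions, at 1.17 to 1.81% in WT and 0.632 to 1.003% in KO monosome libraries and 0.215 to 0.332% and 0.156 to 0.194% in low polysome libraries, while the groups overlapped in the high polysome (0.0591 to 0.111% and 0.0610 to 0.0815%), and its part in the result was not tested. With voom sample quality weights, which give less weight to the more variable libraries, the monosome count was 6 lower, with Upf1, Upf3a and Smg6 added.

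**Figure D2:**
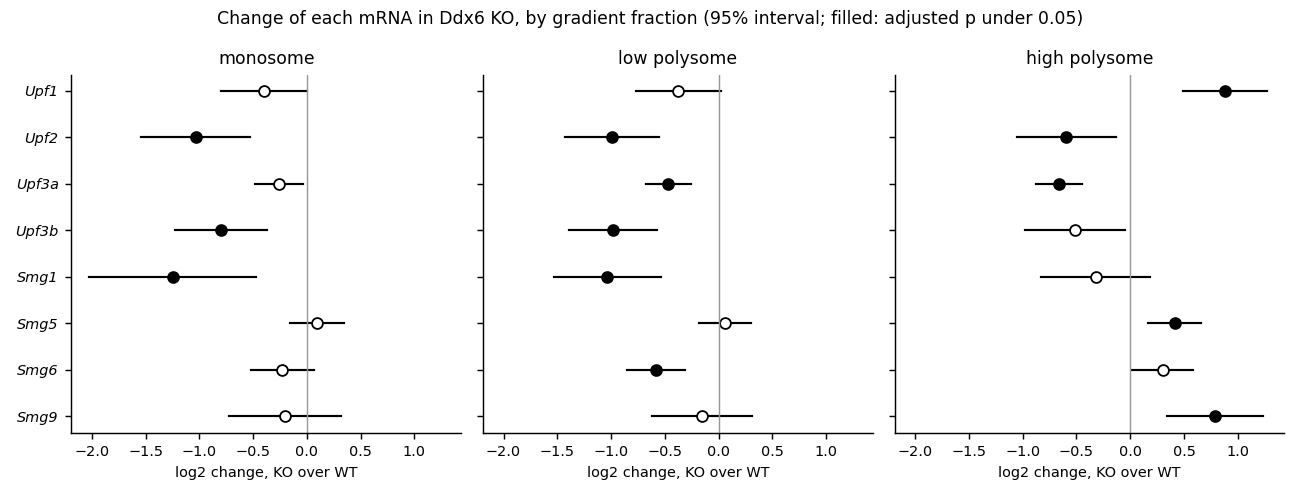
Log2 change of each mRNA in Ddx6 KO over WT (horizontal axis) in each of the 3 fractions, with points at the limma estimate, lines for the 95% interval and filled points for an adjusted p under 0.05. Upf1 sits at -0.40 and -0.37 in the first panels and at 0.88 in the high polysome, whereas Upf2 sits below 0 in all 3, at -1.03, -0.99 and -0.59.

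The position of each mRNA in the gradient was then described within each genotype by the change from monosome to high polysome. In WT cells 2 of 8 members were higher in the high polysome, against 28.9% of all genes, and 5 were lower, against 32.2%. The higher members were Upf3a (log2 change 0.78 ± 0.11 (SE), limma adjusted p = 2.21e-06) and Smg1 (log2 change 0.90 ± 0.31 (SE), limma adjusted p = 0.0166). The lower members were Upf3b (log2 change -1.42 ± 0.21 (SE), limma adjusted p = 7.82e-06), Upf1 (log2 change -1.25 ± 0.20 (SE), limma adjusted p = 1.4e-05), Smg6 (log2 change -0.80 ± 0.14 (SE), limma adjusted p = 6.61e-05), Smg5 (log2 change -0.46 ± 0.12 (SE), limma adjusted p = 0.0028) and Smg9 (log2 change -0.59 ± 0.25 (SE), limma adjusted p = 0.0498). Upf2 was not called (log2 change -0.46 ± 0.23 (SE), limma adjusted p = 0.0819). The paralogs Upf3a and Upf3b thus lay on opposite sides. The Smg9 value was called in 6 of 19 alternatives, and it was lost without WT gradient 1 (-0.69, adjusted p = 0.0622), 2 (-0.37, adjusted p = 0.322) or 3 (-0.61, adjusted p = 0.141), without KO gradient 3 (-0.55, adjusted p = 0.0797) and when fractions were compared within a gradient by the replicate block (-0.57, adjusted p = 0.0576). The Smg5 call was lost without WT gradient 1 (-0.31, adjusted p = 0.0907) and the Smg1 call without WT gradient 2 (0.95, adjusted p = 0.071).

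In KO cells 2 of 8 members rose from monosome to high polysome, against 35.0% of all genes, and 1 was lower, against 33.6%. Smg1 (log2 change 1.82 ± 0.32 (SE), limma adjusted p = 4.14e-05) and Upf3a (log2 change 0.38 ± 0.10 (SE), limma adjusted p = 0.00282) were the higher members, as in WT, and Upf3b (log2 change -1.14 ± 0.22 (SE), limma adjusted p = 0.000114) was the lower one. Upf1 was not called, with a log2 change of 0.03 ± 0.18 (SE), limma adjusted p = 0.892 (95% interval -0.35 to 0.41). The sign of the Upf1 value turned with scaling by library size alone (-0.07, adjusted p = 0.733). The remaining values were -0.02 ± 0.24 (SE), limma adjusted p = 0.935 for Upf2, -0.14 ± 0.12 (SE), limma adjusted p = 0.276 for Smg5, -0.26 ± 0.13 (SE), limma adjusted p = 0.0846 for Smg6 and 0.41 ± 0.21 (SE), limma adjusted p = 0.0933 for Smg9. The Smg9 value was called without KO gradient 1 (0.73, adjusted p = 0.00909).

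Whether loss of DDX6 changed the position of an mRNA was tested by the interaction term, the log2 ratio of high polysome to monosome in KO less that in WT. It was called higher for 2 of 8 members, against 10.7% of all genes, and lower for 0, against 7.09%. Upf1 gave a log2 difference of 1.28 ± 0.27 (SE), limma adjusted p = 0.00349, which was called under all 19 alternatives with values from 0.82 to 1.54. Per gradient, the log2 ratio of Upf1 was -1.23, -1.25 and -1.23 in WT and -0.49, 0.37 and 0.21 in KO. The 3 WT gradients were nearly equal, and all 3 KO gradients lay above them, with clone 1 the nearest. Smg9 gave 0.99 ± 0.33 (SE), limma adjusted p = 0.0418, with log2 ratios of -0.12, -0.94 and -0.51 in WT and -0.25, 0.64 and 0.77 in KO. Those of Smg9 overlapped, since KO gradient 1 lay between WT gradients 1 and 3. The Smg9 call held in 8 of 19 alternatives and was lost without WT gradient 1 (1.08, adjusted p = 0.0728), 2 (0.78, adjusted p = 0.197) or 3 (1.02, adjusted p = 0.0992) and without KO gradient 2 (0.86, adjusted p = 0.116) or 3 (0.78, adjusted p = 0.219).

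The other members were not called. Smg1 gave a log2 difference of 0.93 ± 0.45 (SE), limma adjusted p = 0.152, with ratios of 1.15, 0.80 and 0.89 in WT and 1.98, 1.26 and 2.05 in KO, and it passed when fractions were compared within a gradient by the replicate block (0.89, adjusted p = 0.0326). Smg6 gave 0.53 ± 0.20 (SE), limma adjusted p = 0.0638 and passed without KO gradient 1 (0.71, adjusted p = 0.0201) and with a filter of 10 CPM (0.54, adjusted p = 0.0479). Smg5 gave 0.32 ± 0.17 (SE), limma adjusted p = 0.198, Upf2 gave 0.44 ± 0.33 (SE), limma adjusted p = 0.368 and Upf3b gave 0.29 ± 0.31 (SE), limma adjusted p = 0.544. Upf3a was the only member with a negative value, as given above, and its ratios of 0.77, 0.82 and 0.74 in WT were all above its ratios of 0.27, 0.48 and 0.39 in KO. The KO gradients lay above the WT gradients without overlap for 4 members (21.2% of all genes) and below for 1 (17.8%). Among the 4, the lowest KO ratio of Smg6, -0.615 in gradient 1, was close to its highest WT ratio, -0.623. For Smg5 these were -0.303 and -0.334. The median over the members was 0.49 beside 0.02 over all genes. Over genes with coding sequences above 3000 nt, the length class of Upf1, Upf2, Smg1, Smg5 and Smg6, it was 0.56. This comparison depends on the scaling for the typical gene, because scaling by library size alone set the median of all genes to -0.10 and changed the calls over all genes from 1357 higher and 901 lower to 936 higher and 1386 lower, while the Upf1 call remained.

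For the low polysome over the monosome the same interaction was called for 0 of 8 members by limma, where 2.31% of all genes were higher and 2.39% lower, and 0 of 8 had an unadjusted p under 0.05. No member was called by edgeR or DESeq2 either. The values ran from -0.35 for Smg6 to 0.22 for Smg1, with a median of -0.00 beside 0.02 over all genes. The values of the other members lay between -0.20 and 0.05. Over all genes 294 were called higher and 304 lower, and with scaling by library size alone 229 and 494.

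The high polysome was therefore also set against the low polysome, a comparison added after these values were seen. It was called higher for 2 of 8 members, against 3.39% of all genes, and lower for 0, against 1.03%. Of genes with coding sequences above 3000 nt, among them Upf1 and Smg6, 17.1% were called higher. Upf1 gave a log2 difference of 1.25 ± 0.27 (SE), limma adjusted p = 0.012, with ratios of -0.68, -0.55 and -0.88 in WT and 0.49, 0.25 and 0.83 in KO. Smg6 gave 0.89 ± 0.19 (SE), limma adjusted p = 0.0117, with ratios of -1.10, -1.43 and -1.28 in WT and -0.46, -0.62 and -0.12 in KO. All 3 KO gradients lay above all 3 WT gradients for 7 of 8 members, where 17.7% of all genes did so, and Upf3a was the exception. The share of 17.7% is over genes of all lengths, and it was not computed for long genes alone. The median over the members was 0.59 beside -0.00 over all genes. Over genes above 3000 nt, the length class also of Upf2, Smg1 and Smg5, it was 0.52. Of the 5 other members above without overlap, Smg9 (log2 difference 0.94 ± 0.31 (SE), limma adjusted p = 0.0827) was the nearest to the threshold. Both calls were lost without WT gradient 1, 2 or 3 or KO gradient 3, with adjusted p of 0.0517 to 0.159 for Upf1 and 0.0525 to 0.161 for Smg6, and without KO gradient 3 the number of all genes called fell from 562 to 0. Scaling by library size alone changed the calls over all genes from 431 higher and 131 lower to 322 and 212. The comparisons of this paragraph and those before it share the same WT and KO libraries and are not independent of each other.

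**Figure D3:**
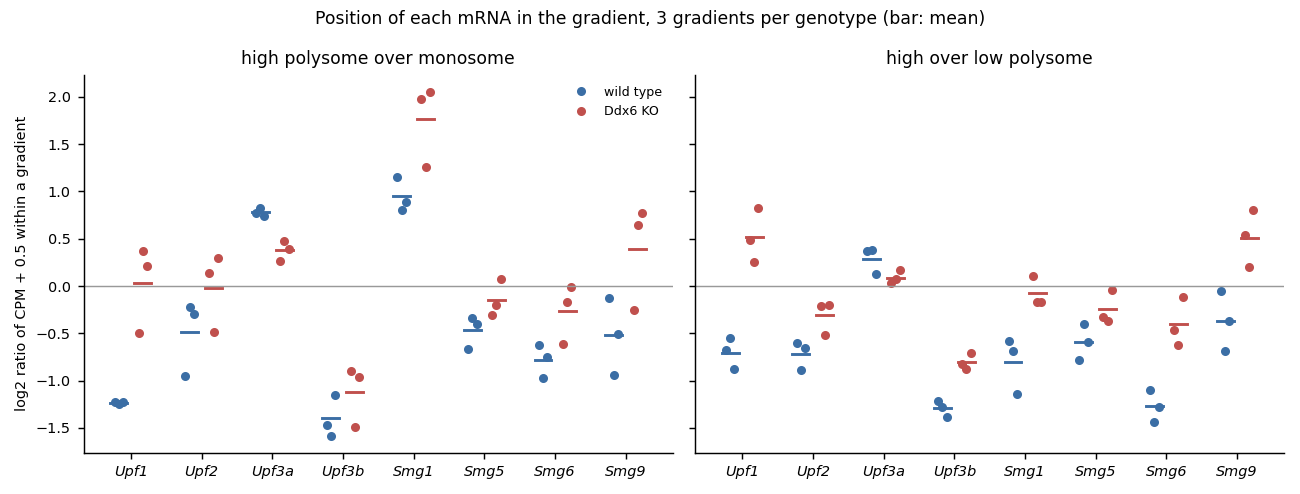
Log2 ratio of CPM + 0.5 within a gradient (vertical axis) for high polysome over monosome and for high over low polysome, with 1 point per gradient for WT (blue) and Ddx6 KO (red) and a bar at the mean of 3. The WT points of Upf1 lie between -1.25 and -1.23 in the first panel, below all KO points, and in the second panel the genotypes are apart, with KO higher, for every member but Upf3a.

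Coding length moved with these shifts. Upf1 (3372 nt), Upf2 (3807 nt), Smg1 (10974 nt), Smg5 (3051 nt) and Smg6 (4254 nt) had coding sequences above 3000 nt, and Upf3a (1266 nt), Upf3b (1416 nt) and Smg9 (1560 nt) had shorter ones. Over all tested genes the median of the high polysome to monosome interaction was 0.56 for the 1621 genes above 3000 nt, of which 27.6% were called higher, and 0.06 for the 4514 genes of 1000 to 2000 nt, of which 8.99% were. For the high over low polysome the medians were 0.52 and -0.09, and 17.1% and 1.2% were called higher. Of the 5 long members, Upf1 at 1.28 and Smg1 at 0.93 lay above the median of their length class in the first comparison, and Smg6 at 0.53, Upf2 at 0.44 and Smg5 at 0.32 below it. With the trend of each library on coding length removed, Upf1 kept its call at 0.82, limma adjusted p = 0.0484, while Smg9 was 0.83, limma adjusted p = 0.118, and Upf2 and Smg5 changed sign to -0.04 and -0.11. Smg6 was then 0.02, limma adjusted p = 0.967. Smg1 was 0.21, limma adjusted p = 0.765, and with the replicate block, under which it had been called, 0.22, limma adjusted p = 0.645. In the high over low comparison no member was called after this step, with Upf1 at 0.88, limma adjusted p = 0.0899 and Smg6 at 0.41, limma adjusted p = 0.268. There Upf2 was -0.03, Smg1 -0.09, Smg5 0.03 and Upf3a -0.09, while Smg9 was 0.95 and Upf3b 0.53.

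The same step bore on the comparisons within fractions and genotypes. In the high polysome Upf1 was 0.55, limma adjusted p = 0.0128, Smg9 was 0.61, limma adjusted p = 0.0232, and Smg5 was no longer called at 0.10, limma adjusted p = 0.512. There the falls of Upf2 (-0.92, limma adjusted p = 0.00101), Upf3b (-0.65, limma adjusted p = 0.0256) and Smg1 (-0.66, limma adjusted p = 0.0102) were larger than before and called. Smg1 in the low polysome was -0.58, limma adjusted p = 0.0192, its WT change from monosome to high polysome was 0.56, limma adjusted p = 0.06, and its KO change was 0.78, limma adjusted p = 0.0134. From monosome to high polysome in KO, Smg6 (-0.77, limma adjusted p = 2.56e-05) and Smg5 (-0.46, limma adjusted p = 0.00173) were called lower after the removal. Upf2, Upf3b and Smg1 were called lower in all 3 fractions after the removal, as was Upf3a, which in the monosome was -0.33, limma adjusted p = 0.0208.

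**Figure D4:**
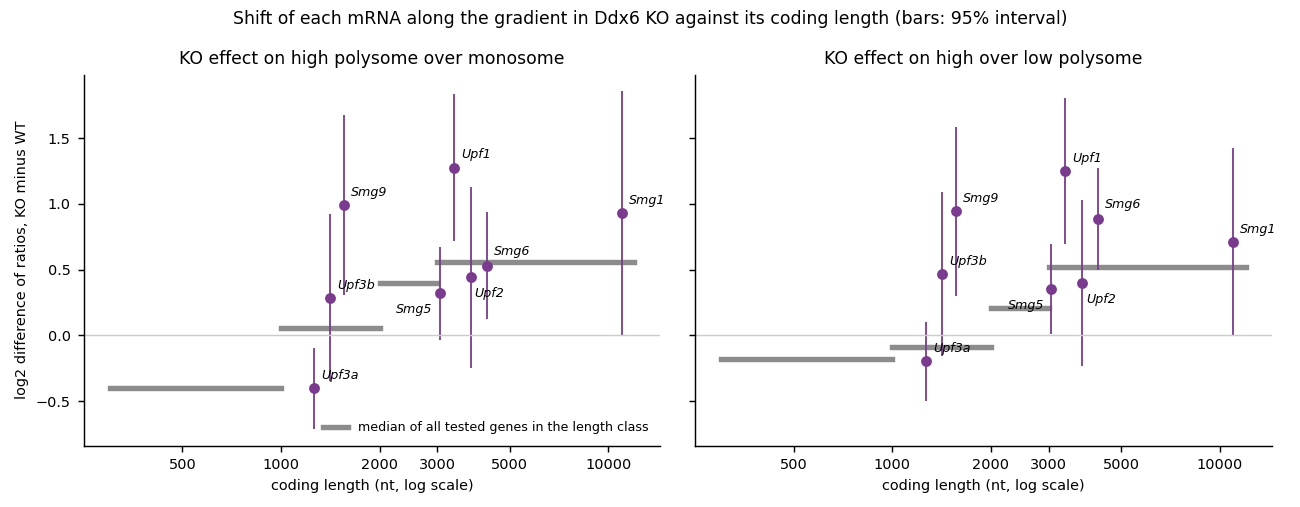
Log2 difference of ratios between KO and WT (vertical axis) for each NMD factor mRNA against its coding length in nt (horizontal axis, log scale), for high polysome over monosome and for high over low polysome, with 95% intervals from limma. Grey bars show the median of all tested genes up to 1000, 2000 and 3000 nt and above, and in the first panel they step from -0.40 to 0.56 while Upf1 stands at 1.28.

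The other proteins of the pathway were read from lists of fixed symbols, all of which passed the filter. Of 6 other NMD factors, 3 rose in the KO high polysome and 1 fell, against 25.3% and 21.1% of all genes, with Nbas at a log2 change of 1.13 ± 0.22 (SE), limma adjusted p = 0.000292, Ruvbl1 at 0.62 ± 0.12 (SE), limma adjusted p = 0.000396, Smg8 at 0.61 ± 0.18 (SE), limma adjusted p = 0.00814 and Pnrc2 at -0.54 ± 0.19 (SE), limma adjusted p = 0.0259. SMG8 is the partner of SMG9 at the SMG1 kinase, RUVBL1 is an ATPase that associates with SMG1, and PNRC2 is an adaptor to the decapping enzyme. In the interaction of high polysome over monosome, where 10.7% of all genes were higher and 7.09% lower, 1 of 6 was called, Nbas (1.69 ± 0.40 (SE), limma adjusted p = 0.00667), and the median of the list was 0.49 beside 0.02 over all genes. Of 7 genes of the exon junction complex, 3 were lower (7.09% of all genes) and 1 higher (10.7%) in the interaction, namely Rbm8a (-0.77 ± 0.17 (SE), limma adjusted p = 0.00501), Magohb (-1.60 ± 0.44 (SE), limma adjusted p = 0.0164) and Magoh (-0.58 ± 0.19 (SE), limma adjusted p = 0.0417) against Casc3 (0.67 ± 0.16 (SE), limma adjusted p = 0.00674). RBM8A and the MAGOH proteins form the heterodimer of the core complex, to which UPF3 proteins dock. The values of these lists and those below were not corrected for coding length, and its part in them was not tested. In the interaction of high polysome over monosome, 18.9% of genes up to 1000 nt were lower and 1.5% higher. Above 3000 nt, 0.864% were lower and 27.6% higher.

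Of 4 translation termination genes, 2 were higher in the interaction (10.7% of all genes), Pabpc1 (1.13 ± 0.21 (SE), limma adjusted p = 0.00175), the cytoplasmic poly(A)-binding protein, and Gspt2 (1.66 ± 0.34 (SE), limma adjusted p = 0.00287), an eRF3 release factor. Of 7 genes for cap binding and for the decay steps that NMD uses, 1 was higher, Edc4 (1.11 ± 0.28 (SE), limma adjusted p = 0.0099), and 1 lower, Ncbp2 (-0.66 ± 0.17 (SE), limma adjusted p = 0.0122), against 10.7% and 7.09% of all genes. Transcripts known as NMD substrates moved in both directions. Of 9, 4 were lower and 2 higher in the KO monosome (20.1% and 18.6% of all genes), 4 lower and 3 higher in the low polysome (24.3% and 23.4%), and 4 lower and 3 higher in the high polysome (21.1% and 25.3%). In the monosome Gas5 (-1.29 ± 0.12 (SE), limma adjusted p = 7.78e-08) and Snhg1 (-1.01 ± 0.15 (SE), limma adjusted p = 1.99e-05), hosts of small nucleolar RNAs, and Snhg12 (-0.82 ± 0.11 (SE), limma adjusted p = 7.18e-06) were lower, and Gadd45a (1.87 ± 0.32 (SE), limma adjusted p = 0.000131), a stress response gene, was higher.

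The 8 members did not share a single profile. Over the 18 libraries, which share fractions and gradients, Pearson's r between pairs of members ran from -0.62 for Smg5 and Upf3a to 0.79 for Smg9 and Upf1. With the mean profile of all 8, to which each contributes, r was 0.89 for Smg6 and 0.06 for Upf3a. Among genes of at least 10 CPM outside the list, those most like the mean profile were Tcf4 (r = 0.90), Prdm2 (r = 0.90), Dock6 (r = 0.89), Rnf20 (r = 0.89) and Slc9a8 (r = 0.88). Those most like Upf1 alone were Rpap1 (r = 0.94), Nrde2 (r = 0.94) and Mms19 (r = 0.92), each over 18 libraries.

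The 3′ UTRs of protein-coding transcripts in the basic set of Gencode M21 were searched for sites of the ESC-enriched ESCC miRNAs. The reason was that DDX6 acts with the miRNA machinery and these miRNAs are abundant in ESCs. Their shared seed is shown by a member of each main cluster, from RefSeq (GRCm38.p6), with bases 2 to 8 in capitals.
mmu-miR-294-3p: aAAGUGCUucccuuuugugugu
mmu-miR-302b-3p: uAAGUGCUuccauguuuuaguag
The letters matching this seed on the mRNA strand, AGCACTT, AGCACTTA and GCACTTA, which overlap each other, occurred in no 3′ UTR of the 8 members in this set. The longest was that of Smg1 at 4233 nt and the shortest that of Smg9 at 400 nt. Any of the 3 occurred in 21.9% of the 11745 tested genes with a 3′ UTR in this set, and AGCACTT alone in 18.5%. This describes the letters in these windows only.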

How the data were processed

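The authors counted uniquely mapped reads by gene and strand in featureCounts 1.5.3, from QuantSeq 3′ FWD libraries (cutadapt 1.14 and STAR 2.5.3a per the submitters' processing notes), with the Gencode M14 annotation on GRCm38. The deposited counts held 51467 genes and 92 spike-in sequences, which had 28 to 169 counts per library and were left out. No source names molecular identifiers, so counts may include PCR duplicates. Symbols, coordinates, coding lengths and UTRs came from Gencode M21 on the same assembly.

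The limma fit, filter and interaction follow the study's methods. Genes with at least 3 CPM in at least 3 libraries were scaled by TMM in edgeR 4.0.16 (R 4.3.3), and limma 3.58.1 with voom then estimated 6 group means from 18 libraries. TMM set a typical gene to no change. Tests were two-sided, with Benjamini-Hochberg adjustment over all 12705 genes and calls at 0.05. Ratios per gradient used a pseudocount of 0.5 CPM. The study's design named limma for these counts, so edgeR's quasi-likelihood and DESeq2 1.42.0 tests were alternatives, 19 in all with other scalings, filters, weights, depth, a coding-length correction, replicate blocks and gradients left out. Scripts were tested on simulated data.

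Fractions of a number come from a single gradient, per the protocol, so the number pairs them by design. Deviations from group means correlated with a median r of 0.07 over 18 pairs of fractions of a gradient. Between low and high polysome, r was 0.26, 0.28 and 0.21 in WT gradients 1, 2 and 3. In KO gradients 1, 2 and 3 it was 0.42, -0.08 and -0.16. Numbers do not pair WT with KO (median r 0.03 over 9 pairs). No pair of replicate libraries agreed within sampling noise.

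Members and gene lists were chosen with earlier results of these data known. All members are named, with up to 4 genes of lowest adjusted p per other list, and the genes most like the mean profile (5) and Upf1 (3). A gene of the list of other NMD factors is not reported here.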

Additional observations from a re-analysis of the deposited data

Results flagged for a closer look

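The change from WT to Ddx6 KO differed between fractions, by the test of the difference itself, for Upf1 between high polysome and monosome (log2 difference 1.28) and between high and low polysome (1.25), for Smg9 between high polysome and monosome (0.99), and for Smg6 between high and low polysome (0.89). Of these, the Upf1 value for high polysome over monosome was called under all 19 alternatives, and the others under 8 (Smg9), 13 (Upf1, high over low) and 13 (Smg6). With the coding-length trend removed, none of these others was called. The limma adjusted p was then 0.118 (Smg9), 0.0899 (Upf1, high over low) and 0.268 (Smg6), beside 0.0484 for Upf1 in high polysome over monosome. The comparison of high with low polysome was chosen after values were seen.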

How the results depend on the processing

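Over 64 member tests (8 mRNAs in 8 comparisons) and 19 alternatives, 1072 of 1216 values kept their direction and their side of the threshold, 53 lost the call, 46 gained it and 45 changed sign; the cause was not tested. No value that changed sign was called on either side. The shallow depth of the WT monosome libraries and of Smg1 and Smg9 limits what can be called there, and the fractions give shares of RNA, not amounts per cell.

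Counts of called members that moved by over 1.5 times, and the ranges with a gradient left out, were as follows. In the monosome sample quality weights gave 6 lower in place of 3, and leaving out a gradient gave 2 to 4, with 5 to 6 lower in the low polysome. In the high polysome, where 3 were higher and 2 lower, no filter on low counts and thinned libraries each gave 1 lower, the coding-length trend removed gave 4 lower with or without the replicate block, and leaving out a gradient gave 1 to 4 higher and 1 to 4 lower. For the WT high polysome against the monosome (2 higher, 5 lower), removing the length trend gave 1 higher, and leaving out a gradient gave 1 to 2 higher and 3 to 5 lower. In KO (1 lower), scaling by library size alone or a filter of 10 CPM gave 2 lower, removing the length trend gave 3, with or without the block, and leaving out a gradient gave 2 to 3 higher in place of 2. For the interaction of high polysome over monosome (2 higher, 0 lower), both other scalings, no filter and a fit to the compared groups each gave 1 higher and 1 lower, DESeq2, quality weights and the random gradient block each gave 1 lower, and removing the length trend gave 1 higher, with or without the block. Leaving out a gradient gave 1 to 3 higher there. For high over low polysome (2 higher), removing the length trend gave 0 with or without the block, and leaving out a gradient gave 0 to 2.

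Values that changed sign were as follows. In the low polysome, thinning gave -0.0011 for Smg5 and 0.13 for Smg9, and leaving out a gradient gave -0.02 to 0.12 for Smg5. In the high polysome Smg6 was -0.04 with the length trend removed, with or without the block. From monosome to high polysome in KO, Upf1 was -0.07 with scaling by library size, -0.05 with the 10 CPM filter, -0.0016 in the compared groups, -0.33 with the length trend removed and -0.32 with the block added, and leaving out a gradient gave -0.14 to 0.29 for Upf1 and -0.17 to 0.22 for Upf2. In the interaction of high polysome over monosome the length trend removed gave -0.04 for Upf2 and -0.11 for Smg5, and -0.04 and -0.10 with the block, and for high over low polysome -0.03 for Upf2 and -0.09 for Smg1, and -0.03 and -0.05 with the block. For low polysome over monosome, scaling by library size gave -0.04 for Upf1, -0.02 for Upf2 and -0.01 for Smg9, no filter gave -0.03, -0.01 and -0.0054, the length trend removed gave -0.06, -0.02 and -0.12, and with the block -0.04, -0.0041 and -0.10. There quality weights gave 0.07 for Smg5, thinning gave -0.04 for Upf1 and -0.05 for Smg1, and leaving out a gradient gave -0.27 to 0.26 for Upf1, -0.22 to 0.29 for Upf2, -0.29 to 0.00095 for Upf3b, -0.02 to 0.42 for Smg1, -0.07 to 0.00094 for Smg5 and -0.22 to 0.37 for Smg9.

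With the replicate block alone, Upf1 in the interaction of high polysome over monosome was 1.28 (limma adjusted p = 0.00229). The block changed 3 calls, those of Upf3b in the high polysome, Smg9 in WT and Smg1 in the interaction, whose values stand beside them, and no other call of a member. For Upf3b the block joined WT and KO gradients by number, which does not pair the genotypes. With the gradient as a random block, Upf3a was called in the interaction of high polysome over monosome, at -0.40, and no other call changed. Pseudocounts of 0.1 and 2 CPM moved the median ratio over members from -0.58 to -0.59 and -0.54 in WT and from 0.03 to 0.03 and 0.02 in KO.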
